A study of Mus musculus with 9 samples.

Results

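Transcripts of 10 genes of the vessel wall, listed by name, were followed in the mouse colon. They are Pecam1, Cdh5, Eng, Kdr, Flt1 and Tek of the blood endothelium, Pdgfb and Pdgfrb of the signal between endothelium and pericytes, and Lyve1 and Prox1 of the lymphatic endothelium. They were found by symbol through their Ensembl identifiers among the 22262 genes counted at least once, and all 10 had counts. The samples were pieces of upper colon, flushed of feces, from 9 female wild-type C57BL/6N mice aged 12 months. Of these, 4 had lived since weaning in the standard environment (WT_SE mice 1, 2, 3 and 5), in small groups in standard cages. The other 5 had lived in the enriched environment (WT_EE mice 1 to 5), in a larger shared cage with running wheels, tunnels, climbing objects and more nesting material. No mouse carried a transgene, no agent was given, and each library came from 1 mouse. Because the environment was given by cage, cage and environment cannot be told apart. The comparison asks whether the environment went with a change in the colon, here in its vascular genes.

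Blood vessels are lined by endothelial cells, which are held together by adhesion molecules such as CD31 (Pecam1) and VE-cadherin (Cdh5). They respond to vascular endothelial growth factor (VEGF) through the receptors VEGFR2 (Kdr), which carries most of the growth signal, and VEGFR1 (Flt1), which binds the ligand tightly and limits its supply. Pericytes wrap small vessels and are recruited by PDGF-B from the endothelium (Pdgfb) acting on the receptor PDGFR-beta (Pdgfrb). Lymphatic capillaries, which in the gut drain fluid and absorbed fat, depend on the transcription factor Prox1 and carry the hyaluronan receptor Lyve1. Several of these genes are not exclusive to vessels, as some tissue macrophages express Lyve1 and enteroendocrine cells express Prox1.

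Molecules were counted from reads at the 3′ end of each transcript, so counts do not grow with transcript length. Levels of different genes are compared on that basis, and other differences between genes in how well their molecules are counted were not tested. Totals were 299062 to 383401 counts per WT_SE library and 295535 to 454043 per WT_EE library. Levels are given in CPM, counts relative to library size with TMM normalization, and the floor set for a detectable level, 3 counts, corresponds to 6.48 to 10.5 CPM. Libraries also stood apart in ways other than the environment. Counts of Slc10a2, a bile acid transporter gene of the ileal type, were 103 and 110 in WT_SE mice 2 and 3 and 107 and 117 in WT_EE mice 1 and 3, against 3 to 26 in the other 5 libraries. The summed level of 10 smooth muscle genes was 4521 and 4416 CPM in WT_EE mice 2 and 4, against 2498 to 3212 CPM in WT_SE and 2570 to 3137 CPM in the other WT_EE mice.

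The VEGF receptors Kdr and Flt1 had the highest levels of the 10 genes and came nearest to a difference between the environments. On GRCm38 the genes occupy chr5:75932827-75978458 (Kdr) and chr5:147561604-147726011 (Flt1), both on the minus strand. As regulatory context for this pair, the 250 bases before each RefSeq start are given 5′ to 3′, at chr5:75978456-75978705 for Kdr and chr5:147726012-147726261 for Flt1, both on the minus strand of GRCm38.p6. Capitals mark GGAA, the core that ETS factors of the endothelium recognise, and its reverse complement TTCC.
Kdr: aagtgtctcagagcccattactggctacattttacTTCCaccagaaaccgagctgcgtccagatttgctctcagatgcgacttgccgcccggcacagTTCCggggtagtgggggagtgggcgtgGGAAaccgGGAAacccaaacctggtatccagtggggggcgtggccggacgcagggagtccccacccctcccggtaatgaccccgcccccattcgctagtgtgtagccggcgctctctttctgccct
Flt1: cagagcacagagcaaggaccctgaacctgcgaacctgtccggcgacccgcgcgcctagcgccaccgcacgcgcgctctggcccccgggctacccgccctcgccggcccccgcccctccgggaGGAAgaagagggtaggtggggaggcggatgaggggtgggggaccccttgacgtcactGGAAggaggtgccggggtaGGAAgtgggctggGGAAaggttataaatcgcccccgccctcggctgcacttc
Each window held 4 ETS cores counted on both strands, and 93.4% of the 32851 RefSeq windows of this length held at least 1 (median 3). The Flt1 window also held 1 cAMP response element (TGACGTCA, in 1.55% of windows) and 1 TATA box (TATAAA, in 12.4%), and the Kdr window held neither. GC boxes (GGGCGG, in 32.7% of windows) numbered 2 in the Kdr window and 3 in the Flt1 window, and no match of one motif overlapped a match of another. The same table held windows for Eng, Tek and Prox1, with 3, 2 and 2 ETS cores in the window before the start (5 at a second start of Prox1). Windows for Pecam1, Cdh5, Pdgfb, Pdgfrb and Lyve1 were not used here. These matches describe the letters only.

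Averaged over the 9 mice, Kdr was at 92.1 CPM and Flt1 at 80.6 CPM, and Kdr was the higher of the pair in 7 of 9 mice. Next came Lyve1 at 64.6 CPM and Pecam1 at 45.5 CPM. Pdgfrb and Prox1 followed at 32.56 and 32.03 CPM, and Pdgfb at 20.99 CPM. Cdh5 was at 12.8 CPM, Eng at 12.02 CPM and Tek, the angiopoietin receptor gene, at 7.52 CPM. Neighbours in this order were hard to part: Flt1 exceeded Lyve1 in 5 of 9 mice, Pecam1 exceeded Pdgfrb in 5, Pdgfrb exceeded Prox1 in 5, and Cdh5 exceeded Eng in 4. The steps from Prox1 down to Pdgfb and from Pdgfb down to Cdh5 each held in 8 of 9 mice. Kdr and Flt1 made up 43.1% of the summed level of the 10 genes. The level of Kdr was higher than that of 78.5% of the 17441 genes tested, and that of Tek higher than that of 28.2%.

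**Figure D1:**
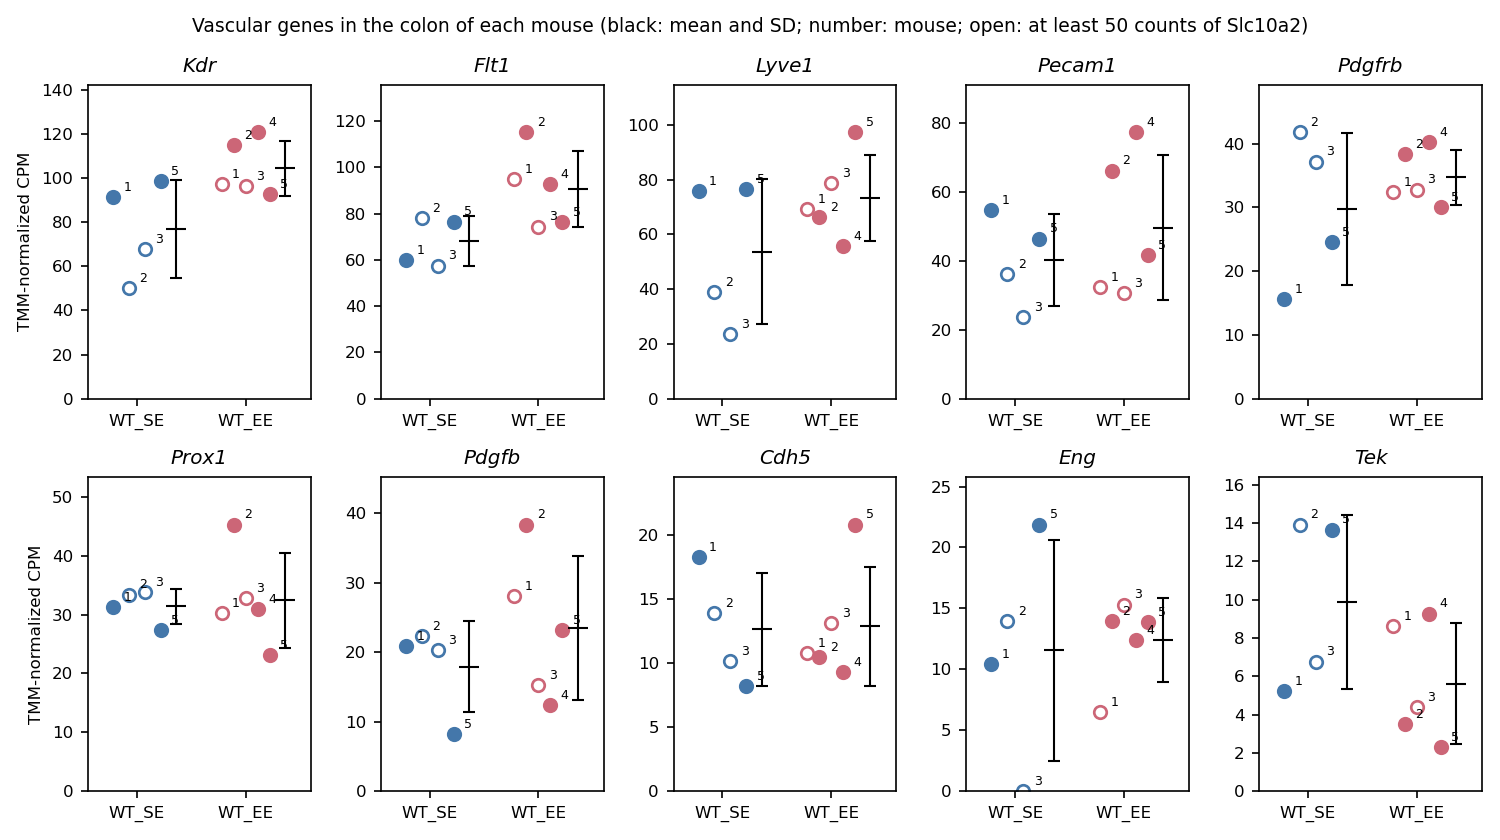
TMM-normalized CPM (vertical axes, each from 0) of the 10 vascular genes in the 4 WT_SE mice (blue) and 5 WT_EE mice (red), in order of mean level. Each point is 1 mouse with its number, open where the library had at least 50 counts of Slc10a2, and the black bars are the mean and SD. For every gene the ranges of both groups overlap, and the 4 open points are the 4 lowest of Pecam1.

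All 10 genes passed the filter on low counts, at least 4 CPM in at least 1 library, and were read from an edgeR quasi-likelihood fit over all genes tested. At an unadjusted p under 0.05, the limit the study uses, 1 of the 10 was called, Kdr, higher in WT_EE. Of all genes tested, 7.65% were called, 4.31% higher and 3.34% lower in WT_EE, so that 1 of 10 is close to the share among all genes. None of the 10 passed once edgeR's p-values were adjusted by Benjamini-Hochberg, where 0.0401% of all genes did. The DESeq2 Wald test called 0 of the 10 at an unadjusted p under 0.05, where it called 3.69% of all genes, and limma-voom called 1, where it called 7.78%. For none of the 10 were the groups apart, which was so for 2.58% of all genes. Log2 fold changes of WT_EE against WT_SE were positive for 9 of the 10 and negative for Tek, with a median of 0.22, beside a median of 0.01 and 51.1% positive among all genes tested. With upper quartile normalization the number of positive values was 6, with Cdh5, Eng and Prox1 at -0.01, -0.02 and -0.03. That scaling also moved the share of all calls that were higher in WT_EE from 56.3% to 44.96%.

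Kdr, the main VEGF receptor of the endothelium, had 35, 18, 20 and 36 counts in WT_SE mice 1, 2, 3 and 5, or 91.4, 50.1, 67.6 and 98.4 CPM. In WT_EE mice 1 to 5 it had 45, 33, 44, 39 and 40 counts, or 97.2, 115, 96.2, 121 and 92.6 CPM. The WT_EE mice thus lay close together, WT_SE mice 2 and 3 were low, and WT_SE mice 1 and 5 lay near or within the range of WT_EE. The means were 76.9 ± 22.2 CPM (SD, n = 4) and 104 ± 12.6 CPM (SD, n = 5), which is a log2 fold change of 0.41 with a standard error of 0.21, or 1.33-fold with a 95% interval from 0.999 to 1.78. The unadjusted p was 0.0495 in edgeR and 0.0635 in the exact permutation test of the CPM values (two-sided), and the edgeR p adjusted over all genes was 0.649. Its call was lost in 17 of 26 alternatives, while its log2 fold change was positive in all of them, from 0.19 to 0.73. Of single mice, WT_SE mouse 2 moved it most, as without that mouse the log2 fold change was 0.25 and Kdr was not called. Without WT_EE mice 2 and 4, the libraries with the most smooth muscle transcripts and the highest Kdr, it was 0.30, again not called, and the part of muscle content in the difference was not tested beyond this.

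Flt1, the receptor that limits VEGF supply, had 23, 28, 17 and 28 counts in the WT_SE mice, or 60.0, 78.0, 57.5 and 76.5 CPM. In WT_EE it had 44, 33, 34, 30 and 33 counts, or 94.99, 115, 74.3, 92.8 and 76.4 CPM. WT_EE mice 1, 2 and 4 lay above every WT_SE mouse, and WT_EE mice 3 and 5 lay among them. The log2 fold change was 0.39 with a 95% interval from -0.04 to 0.81, close to that of Kdr. The unadjusted p was 0.0700 in edgeR (adjusted p = 0.679) and 0.0794 in the two-sided exact permutation test. The interval leaves room for no change and for a rise of up to 1.76-fold. The value was positive in all 26 alternatives and under the limit of 0.05 in 2 of them, without WT_EE mouse 3 or mouse 5. With the ending of the library name as a covariate, which sets WT_SE mice 1 and 3 apart, it was 0.21.

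Pecam1, the adhesion molecule CD31 of endothelium and platelets at chr11:106654217-106750628, had 21, 13, 7 and 17 counts in the WT_SE mice, or 54.8, 36.2, 23.7 and 46.5 CPM. In the WT_EE mice it had 15, 19, 14, 25 and 18 counts, or 32.4, 66.2, 30.6, 77.3 and 41.6 CPM. Its 4 lowest values were those of WT_SE mice 2 and 3 and WT_EE mice 1 and 3, the libraries with over 100 counts of Slc10a2, and its 2 highest were those of WT_EE mice 4 and 2, the libraries with the most smooth muscle transcripts. Pecam1 varied more than counting alone gives, with a chi-square per degree of freedom of 2.59 within the groups, against a median of 1.183 among the 8782 tested genes with mean counts in the range of the 10. Of those genes 18.1% had a value over 2, as did 2 of the 10, Pecam1 and Lyve1. The median of the 10 was 1.03. Between the environments its log2 fold change was 0.21 (95% interval -0.40 to 0.82, p = 0.452 in the exact permutation test). Without WT_EE mice 2 and 4 it was -0.24, and with the level of Slc10a2 as a covariate -0.17. Pf4, a platelet gene, had from 5 to 10 counts in the WT_SE mice and from 3 to 12 in the WT_EE mice, and the platelet genes Ppbp, Gp1ba and Treml1 had no count in any library.

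Cdh5, Eng and Tek were too sparse to compare at this depth. Cdh5, at chr8:104101625-104144511, had 3 to 9 counts per mouse and differed by 0.04 ± 0.48 (standard error) on the log2 scale. Eng, a co-receptor of the TGF-beta and BMP family at chr2:32646595-32682669, had 0 counts in WT_SE mouse 3 and 3 to 8 in the others, with a change of 0.03 ± 0.55 on that scale. In WT_SE mouse 3, 0 counts allow a level of up to the floor of 3 counts. Eng overlaps Fpgs on the other strand, which had 67 counts in all against 41 for Eng, and whether the counting used strand is not given in the sources used here. On its own strand Eng overlaps Gm26236, a small nucleolar RNA gene with 10 counts in all. Tek, at chr4:94739289-94874976, ranged from 2 to 5 counts in the WT_SE mice and from 1 to 4 in the WT_EE mice, with 6 of 9 mice no higher than the floor, and its fold change is not read. The 95% interval of the fold change ran from 0.523 to 2.03 for Cdh5 and from 0.474 to 2.20 for Eng, which leaves room for changes within these bounds.

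**Figure D2:**
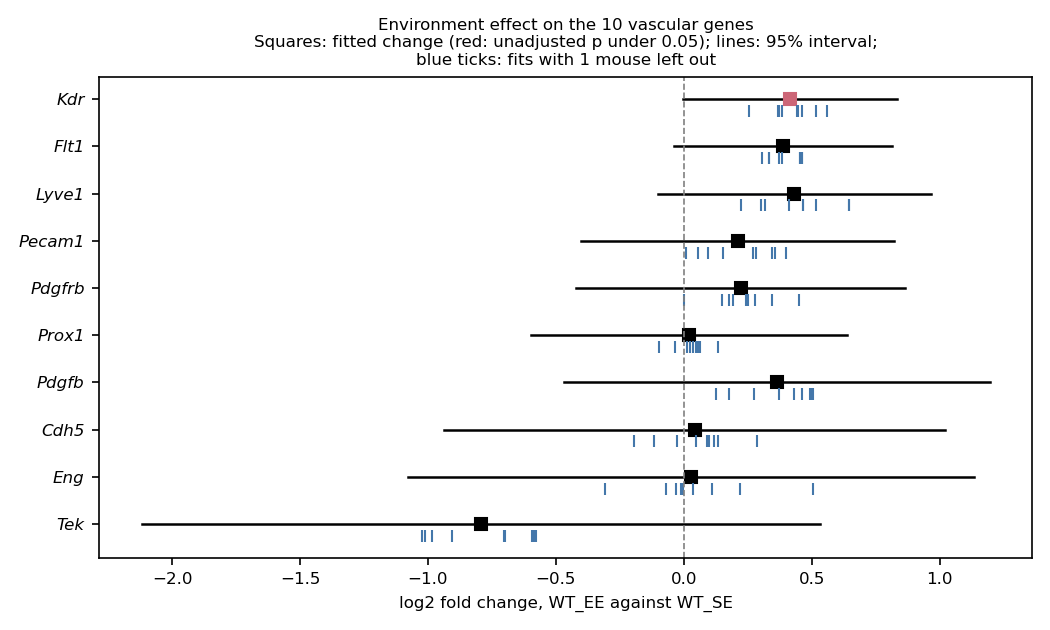
Log2 fold change of WT_EE against WT_SE (horizontal axis) for each of the 10 genes from edgeR, with its 95% interval (line) and the values with 1 mouse left out in turn (blue ticks). The red square is Kdr, with an unadjusted p of 0.0495, and the interval is narrowest for Kdr, at the top, and widest for Tek, at the bottom.

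PDGF-B and its receptor showed no difference past the limit. Pdgfb, at chr15:79995874-80014977, had 8, 8, 6 and 3 counts in the WT_SE mice and 13, 11, 7, 4 and 10 in the WT_EE mice. In CPM, WT_EE mice 1, 2 and 5 were above every WT_SE mouse and WT_EE mice 3 and 4 below the WT_SE mice other than mouse 5. Its log2 fold change was 0.36 (95% interval -0.467 to 1.196), positive in all 25 alternatives that tested it, from 0.02 to 0.71, and none gave a p under 0.05. Pdgfrb, which pericytes and fibroblasts express, lies at chr18:61045150-61085061. It had 6, 15, 11 and 9 counts in the WT_SE mice, or 15.7, 41.8, 37.2 and 24.6 CPM, and 15, 11, 15, 13 and 13 counts in the WT_EE mice, or 32.4, 38.3, 32.8, 40.2 and 30.1 CPM. The WT_EE values fell within those of WT_SE, which were spread widely. The log2 fold change was 0.22 (95% interval -0.42 to 0.87, p = 0.444 in the exact permutation test), and without WT_SE mouse 1 it was 0.00. In the libraries with at least 50 counts of Slc10a2 alone it was -0.28, and in those with under 50 it was 0.82, neither called. WT_SE mouse 1 was also the library with the most adipocyte transcripts, at 778 CPM summed over 10 genes against 71.1 to 448 CPM in the other mice, and the part of attached fat in its value was not tested.

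Lyve1, like Pecam1, varied widely between mice. The gene occupies chr7:110850607-110863239, minus strand. Counts were 29, 14, 7 and 28 in the WT_SE mice, or 75.7, 39.0, 23.7 and 76.5 CPM, and 32, 19, 36, 18 and 42 in the WT_EE mice, or 69.1, 66.2, 78.7, 55.7 and 97.2 CPM. WT_SE mice 2 and 3 were below every other mouse, and WT_SE mice 1 and 5 were level with WT_EE. The highest value was 4.10 times the lowest, and the chi-square per degree of freedom was 2.56. The log2 fold change was 0.43, with a 95% interval from -0.10 to 0.96. The unadjusted p was 0.105 in edgeR (adjusted p = 0.734) and 0.214 in the two-sided exact permutation test. Without WT_SE mouse 3 the log2 fold change was 0.22, and without WT_SE mouse 1 or mouse 5 it was 0.64 or 0.65 and Lyve1 was called. It was also called without WT_EE mice 2 and 4, at 0.56, the 1 of the 10 genes called there, where 7.6% of all genes were.

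The difference in Lyve1 depended on which libraries were compared. Among the 4 libraries with at least 50 counts of Slc10a2 (WT_SE mice 2 and 3, WT_EE mice 1 and 3), Lyve1 was higher in WT_EE with a log2 fold change of 1.202 and was called with Kdr (0.73), so that 2 of the 10 were called where 7.89% of 16464 genes were. Among the 5 libraries with under 50 counts (WT_SE mice 1 and 5, WT_EE mice 2, 4 and 5) it was -0.02, and none of the 10 was called where 8% of all genes were. The difference between these effects was 1.23 on the log2 scale, past the unadjusted limit (as were 5.96% of all genes) but at an adjusted p of 0.664 in an edgeR fit with an interaction term. The split was chosen after the values were seen, and each side holds only 2 WT_SE mice. The summed level of 10 macrophage markers, cells that can carry Lyve1, was 213 to 267 CPM in WT_SE and 157 to 272 CPM in WT_EE, and none of the 10 was called. Their levels in WT_SE mice 2 and 3, which were low in Lyve1, were 267 and 213 CPM, the highest and the lowest of WT_SE. The summed lymphatic markers were 483, 448, 389 and 582 CPM in WT_SE mice 1, 2, 3 and 5. In WT_EE mice 1 to 5 they were 427, 582, 492, 659 and 541 CPM. WT_EE mouse 4 was thus the highest of all mice in this sum and the lowest of WT_EE in Lyve1. Which cells the low Lyve1 came from was not tested.

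Prox1 had the lowest spread between mice of the 10, relative to counting error. The gene lies at chr1:190118035-190170714 and had 12, 12, 10 and 10 counts in the WT_SE mice and 14, 13, 15, 10 and 10 in the WT_EE mice. Means were 31.5 ± 2.97 CPM in WT_SE (SD, n = 4) against 32.5 ± 8.06 CPM in WT_EE (SD, n = 5), the groups overlapped almost fully, and the chi-square per degree of freedom was 0.43. Its log2 fold change was 0.02, and the 95% interval from -0.60 to 0.64 leaves room for changes from 0.661-fold to 1.56-fold. The summed level of 8 enteroendocrine markers, cells that also express Prox1, ranged from 347 to 666 CPM in WT_SE and from 167 to 463 CPM in WT_EE. Chgb and Chga, granule proteins of these cells, were lower in WT_EE at the unadjusted limit, with log2 fold changes of -0.59 and -0.62 (adjusted p = 0.330 and 0.460 in edgeR). Their unadjusted p-values in the exact permutation test were 0.0794 and 0.183. Without WT_EE mice 2 and 4 neither was called, nor in the fit that adjusts for the ending of the library name.

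**Figure D3:**
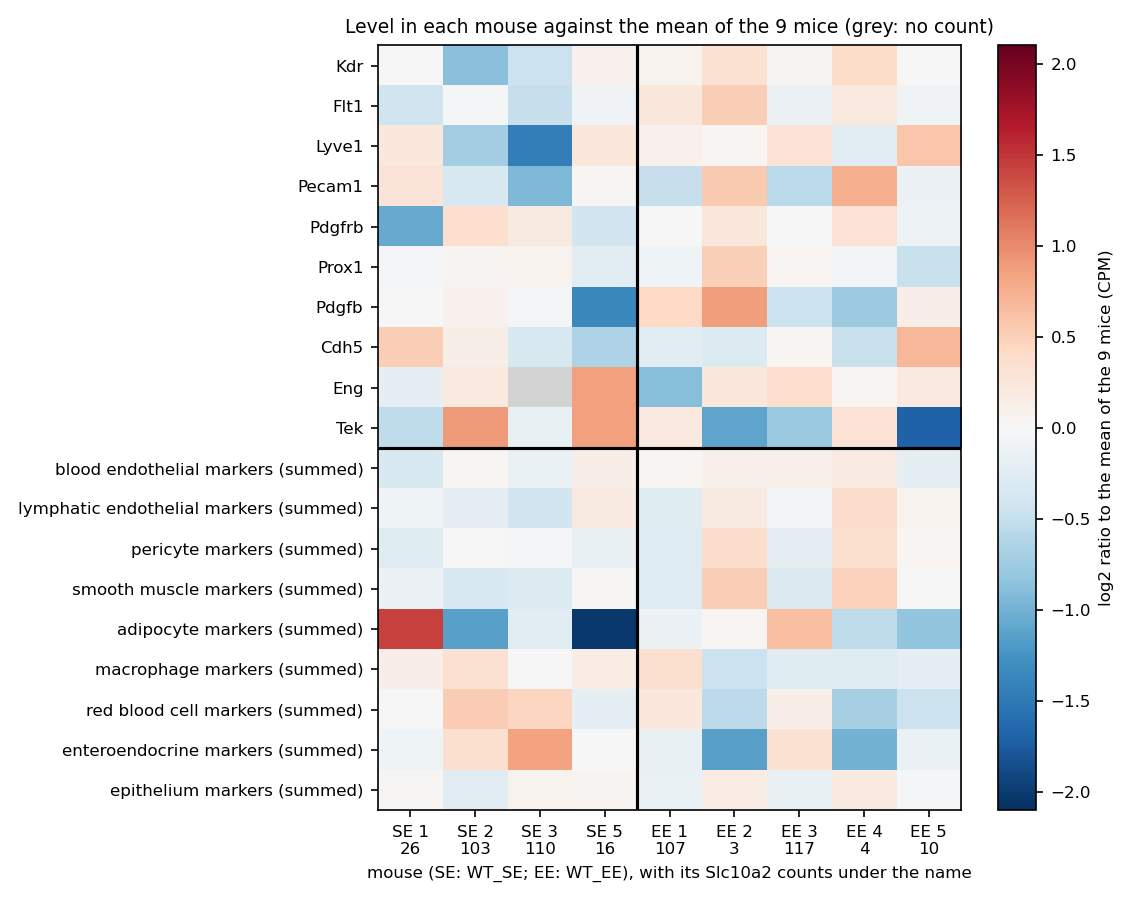
Log2 ratio of the level in each mouse to the mean of the 9 mice (colour, CPM scale) for the 10 genes (upper rows) and for the summed levels of marker lists (lower rows), with WT_SE mice on the left and the Slc10a2 counts under each mouse. WT_SE mouse 3 holds the lowest value of 4 of the 10 genes and WT_EE mouse 2 the highest of 3, and grey marks Eng in WT_SE mouse 3, which had no count.

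Summed over the 10 genes, levels were 384, 343, 281 and 402 CPM in the WT_SE mice and 410, 512, 393, 461 and 421 CPM in the WT_EE mice. WT_SE mouse 3 was lowest, with values below the mean of the 9 mice for 8 of the 10 genes and the lowest value of all mice for 4 of them. WT_EE mouse 2 was highest, with 7 of the 10 genes among the top 3 mice. In a bulk sample, fewer vascular cells and less RNA of these genes per cell cannot be told apart. The sum of 23 blood endothelial markers, which include Tek, did not follow the same order, with 483 to 667 CPM in WT_SE and 525 to 680 CPM in WT_EE, and its lowest value was that of WT_SE mouse 1.

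Genes of vessels were also taken from 12 lists, which hold 111 distinct genes, Tek among them as a blood endothelial marker. Of the 99 tested, 9 were higher and 1 was lower in WT_EE at an unadjusted p under 0.05, or 10.1% against 7.65% of all genes, and none passed the adjustment of edgeR's p-values by Benjamini-Hochberg. The DESeq2 Wald test called 5 of the 99, against 3.69% of all genes. Their median log2 fold change was 0.14. Without WT_EE mice 2 and 4, 7 of the 99 list genes were called, where 7.6% of all genes were, and 5 of these 7 were also called with all mice. All 23 blood endothelial markers had counts, although Cldn5, a tight junction gene of endothelium, reached no more than 2 counts in any mouse. In the main edgeR fit none of the 23 was called at an unadjusted p under 0.05, and their median log2 fold change was 0.13. Of them limma-voom called Ramp2, and edgeR called Egfl7, Plvap or Ramp2 in some alternatives. The most counted, Ptprb and Cd34, had log2 fold changes of 0.02 and -0.15, each with a standard error of 0.23. None of the capillary, arterial or venous markers was called in the main edgeR fit. Cd36 of capillaries, at -0.72 in that fit, was called in some alternatives, among them edgeR without a filter on low counts. Car4 and Fabp4 of capillaries, which colonic epithelium and fat respectively also express, had log2 fold changes of 0.11 and 0.08. For Fabp4 the value rested on WT_SE mouse 1, the library richest in adipocyte transcripts, with 102 counts against 19, 38 and 27 in the other WT_SE mice and 40 to 87 in the WT_EE mice. Fabp4 was called without that mouse and in the fit that adjusts for the ending of the library name. Efnb2 and Cxcl12 of arteries were at -0.06 and -0.08, and Nr2f2 and Vcam1 of veins at -0.19 and 0.13, with an unadjusted p of 0.0397 for Nr2f2 in the exact permutation test.

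Among VEGF ligands and receptors, 1 of 7 genes tested was called, where 7.65% of all genes were. Nrp1, the co-receptor that presents VEGF to Kdr, ranged from 17 to 28 counts in the WT_SE mice and from 27 to 51 in the WT_EE mice, averaging 63.1 ± 12.5 CPM (SD, n = 4) against 97.8 ± 24.6 CPM (SD, n = 5). This is a log2 fold change of 0.61 with a standard error of 0.22 (adjusted p = 0.418 in edgeR, unadjusted p = 0.0476 in the exact permutation test). Without WT_EE mice 2 and 4 it was 0.48 and not called. Nrp2, its lymphatic relative, had -0.08 (standard error 0.14). Among angiopoietin and TIE genes, 0 of 4 were called by edgeR at an unadjusted p under 0.05, with 0.02 for Ptprb and 0.44 (standard error 0.60) for Tie1. Among PDGF genes, 1 of 4 was called: Pdgfa, the ligand of PDGFR-alpha that epithelium and muscle make, with 22 to 65 counts in the WT_SE mice and 65 to 88 in the WT_EE mice. The log2 fold change of Pdgfa was 0.60 with a standard error of 0.19 (adjusted p = 0.269 in edgeR, unadjusted p = 0.0476 in the exact permutation test), and without WT_EE mice 2 and 4 it was 0.41 and still called. Pdgfa was not called in the fit that adjusts for the ending of the library name, nor with libraries of the commoner ending alone. Its receptor gene Pdgfra had 0.25 (standard error 0.26). Of 8 BMP and TGF-beta genes none was called in the main edgeR fit, with -0.07 for Bmpr2 and for Smad7. Bmp6 was called by limma-voom, and Tgfbr2 and Tgfbr3 by edgeR in some alternatives.

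Of 9 Notch genes 2 were called, where 7.65% of all genes were. Jag1, a ligand of vessels and epithelium, ranged from 11 to 18 counts in the WT_SE mice and from 18 to 32 in the WT_EE mice (log2 fold change 0.59), and without WT_EE mice 2 and 4 it was 0.45 and not called. Heyl, a Notch target of mural cells, ranged from 0 to 1 counts in the WT_SE mice and from 2 to 6 in the WT_EE mice, and 8 of 9 mice lay at or under the floor, too few counts for a fold change. Of 10 endothelial transcription factors 2 were called. Sox18 was without counts in WT_SE and had 2, 1, 1, 3 and 5 in WT_EE, again at or under the floor in 8 of 9 mice. Ets1, an ETS factor that lymphocytes express as well, was the 1 gene that was lower, with 6 to 15 counts in the WT_SE mice, 3 to 11 in the WT_EE mice and a change of -0.90 ± 0.40 on the log2 scale (standard error). Without WT_EE mice 2 and 4 it was -0.83, about as large, and not called.

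Of 9 lymphatic markers tested 2 were called, where 7.65% of all genes were. They were Fxyd6 and Itga9, the latter an integrin of lymphatic valves and of smooth muscle. Fxyd6 had 14, 9, 0 and 14 counts in WT_SE and 14, 31, 16, 37 and 18 in WT_EE, highest in WT_EE mice 4 and 2. Fxyd6 was higher by 1.24 on the log2 scale (adjusted p = 0.330 in edgeR, unadjusted p = 0.167 in the exact permutation test). Itga9 was higher by 0.69, and neither was called without WT_EE mice 2 and 4. The list had a median log2 fold change of 0.16, with 6 of 9 positive. Mmrn1 of this list was at -0.49, not called in the main edgeR fit but called in some alternatives. Ccl21a, a chemokine gene of lymphatic vessels, reached no more than 2 counts. Of 12 pericyte markers tested 2 were called, and Ndufa4l2 and Cox4i2 had no count in any library. The median log2 fold change of the 12 was 0.18, with 8 positive. Rgs5, the most counted of them, was at 0.03 in the main edgeR fit and was called in some alternatives. Mcam, an adhesion molecule of endothelium, pericytes and smooth muscle, averaged 88.3 ± 10.1 CPM in WT_SE (SD, n = 4) against 137 ± 28.5 CPM in WT_EE (SD, n = 5). Every WT_EE mouse was above every WT_SE mouse for Mcam, and groups were apart in this way, in either direction, for 2.58% of all genes. The log2 fold change of Mcam was 0.61 with a standard error of 0.19 (adjusted p = 0.265 in edgeR, unadjusted p = 0.0159 in the exact permutation test), and without WT_EE mice 2 and 4 it was 0.45 and still called. Steap4 had 8 of 9 mice at or under the floor.

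**Figure D4:**
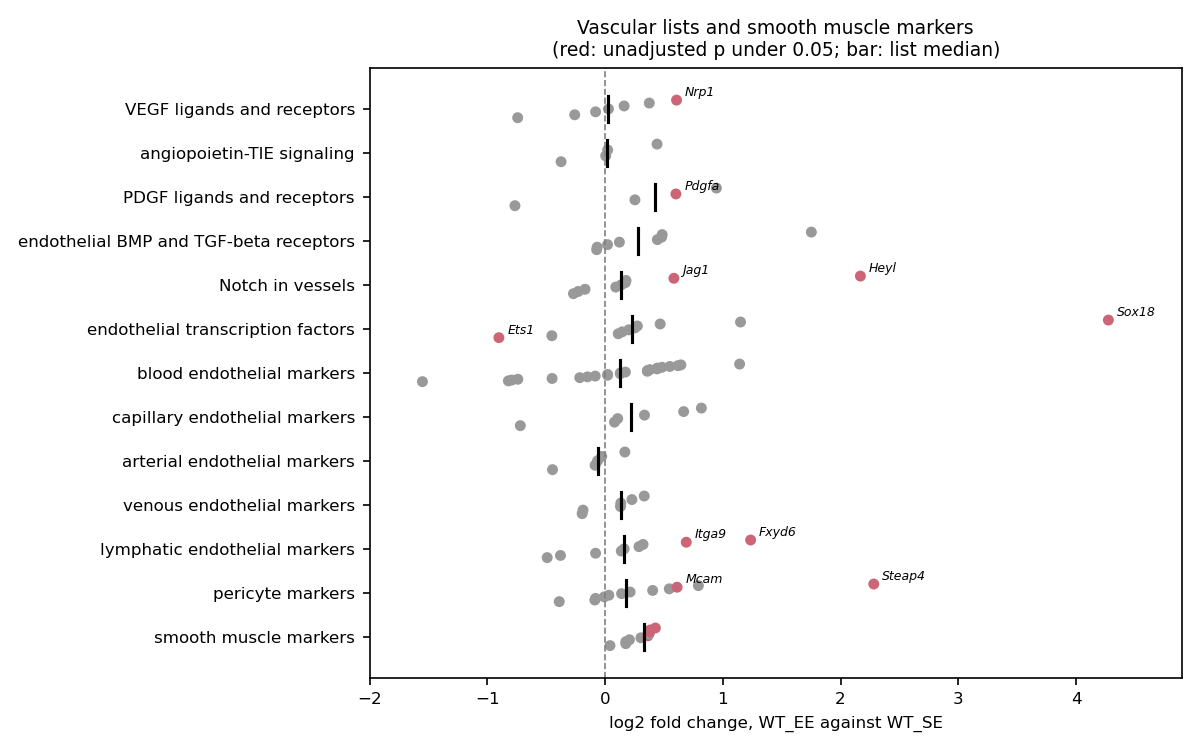
Log2 fold change of WT_EE against WT_SE (horizontal axis) for the genes tested in each vascular list and in the smooth muscle list, 1 point per gene, red at an unadjusted p under 0.05 and named in the vascular lists. Black bars are list medians, which run from -0.06 for arterial markers to 0.43 for PDGF genes, and the smooth muscle list lies at 0.33.

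Of the cell types that share the tissue, smooth muscle had its highest transcript levels in WT_EE mice 2 and 4. All 10 smooth muscle genes had positive log2 fold changes (median 0.33), where 51.1% of all genes tested did. Of the 10, 4 were called, where 7.65% of all genes were: Smtn, Des, Lmod1 and Acta2, at 0.43, 0.38, 0.38 and 0.36. Their exact permutation p-values, unadjusted, ran from 0.103 to 0.278. The number called was 1 with DESeq2, with limma-voom and with the newer quasi-likelihood test, and from 0 to 7 with 1 mouse left out. Without WT_EE mice 2 and 4 the median of the 10 was 0.003 and 1 was called. With Slc10a2 as a covariate it was 0.05 and 0 were called. In the libraries with at least 50 counts of Slc10a2 it was 0.03 with 0 called, and in those with under 50 it was 0.39 with 6 called. Of 7 fibroblast genes tested none was called, with -0.08 for Dcn and 0.07 for Col1a2. Macrophage markers had a median of -0.42, and 0 of 10 were positive. By edgeR 0 of 10 were called at an unadjusted p under 0.05, and Mrc1 and C1qb were at -0.24 and -0.18. Red blood cell genes had a median of -0.40, with 0 of 5 positive and 0 of 5 called. Hbb-bs and Hba-a1, whose molecules may be shared with near-identical copies, were at -0.40 and -0.41. The platelet genes Pf4 and Itga2b were at -0.17 and -0.22, the latter at or under the floor in all 9 mice. Of 10 adipocyte markers 2 were called, Pparg higher (0.61, a gene epithelium also expresses) and Plin1 lower, with 25 counts in WT_SE mouse 1 and 0 to 7 in the others. Of 9 epithelial markers 1 was called, Cdx2, a transcription factor of intestinal epithelium, lower in WT_EE at -0.67 (adjusted p = 0.244 in edgeR), while Cdh1 was at -0.07. In CPM every WT_EE mouse was below every WT_SE mouse for Cdx2 (unadjusted p = 0.00794 in the exact permutation test). The groups were apart for 2.58% of all genes. Without WT_EE mice 2 and 4 Cdx2 was still called. Of 4 mesothelial markers tested 1 was called, Upk3b, at or under the floor in 8 of 9 mice, and Krt19 was at 0.05.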

How the data were processed

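Libraries of polyadenylated RNA were made with a QuantSeq 3′ kit, 1 per mouse. Per the labels, the authors trimmed reads with fastp 0.20.0, aligned them with STAR (2.7.0f in the processing notes, another release in the published methods) to GRCm38.p6, and used featureCounts 1.6.0 and UMI-tools, which collapses copies of a molecule by its identifier. They deposited whole-number counts of molecules per gene, not normalized, and a gene absent from a file was taken as 0. Whether the counting used strand is not given in the sources used here. The floor of 3 counts covers counting error only.

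Symbols and positions came from GENCODE mouse release M21 on GRCm38 (22248 of 22262 genes had a symbol), and promoter windows from RefSeq. A gene entered the tests if any library reached 4 CPM, 1 reading of the study's filter, and 17441 did. The main test was edgeR 4.0.16 in R 4.3.3 (TMM normalization, quasi-likelihood F test in its older form, environment as the only term, Benjamini-Hochberg adjustment over all genes tested). Standard errors and 95% intervals came from the same fit. DESeq2 1.42.0 and limma 3.58.1 were alternatives. CPM values of single genes were compared by exact permutation tests, two-sided, with a smallest p of 0.00794, in python 3.11.15. The steps were tested on simulated counts. Mice of a group differed by more than sampling noise (chi-square per degree of freedom 1.17 to 2.30). p-Values measure the spread between mice, some of which shared a cage.

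The 10 genes and the lists were chosen with earlier results of these data known. Named beside the 10 are, per list, up to 5 genes with an unadjusted p under 0.05, filled up to 2 with the most counted ones. Cldn5, Ccl21a, Mmrn1, Rgs5, Ramp2, Bmp6, Cd36, Egfl7, Plvap, Tgfbr2, Tgfbr3, Fpgs, Gm26236, Slc10a2 and genes without counts were added after their values were seen. Alternatives were other filters, normalizations and tests, a block for the mouse number, leaving out each mouse, and the ending of the library name. WT_SE mice 1 and 3 have 1 ending and the other libraries another, which was used as a covariate or to drop those mice. Added after seeing the data were fits without the libraries richest in fat or muscle transcripts, by Slc10a2 counts, with Slc10a2 as a covariate, and with the newer quasi-likelihood test. Lists were described by counts and medians, and no set test was run. The result of 1 marker list is not reported here.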

Additional observations from a re-analysis of the deposited data

Results flagged for a closer look

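Of 64 groups of 4 or 5 mice examined, 20 of them for the 10 vascular genes and the others for summed marker lists, 3 held a mouse far from the others, where chance gives about 1 in 20 groups. WT_SE mouse 5 held 8.20 CPM of Pdgfb, while the remaining WT_SE mice held 20.3 to 22.3 CPM. The summed macrophage markers in WT_EE mouse 1 were at 272 CPM, against 157 to 187 CPM in the other WT_EE mice. The summed epithelial markers in WT_SE mouse 2 were at 2239 CPM, against 2686 to 2777 CPM.

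For Lyve1, the effect of the environment was larger by 1.23 on the log2 scale in the libraries with at least 50 counts of Slc10a2 than in those with under 50, by a test of the difference itself (unadjusted p = 0.0133, adjusted p = 0.664 in edgeR with an interaction term). Of the other 9 genes, none had an unadjusted p under 0.05 in that test.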

How the results depend on the processing

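Of 26 alternatives, 6 of them chosen after seeing the data, none gave any of the 10 genes an adjusted p under 0.05, and the median log2 fold change of the 10 was positive in all, from 0.036 in the libraries with at least 50 counts of Slc10a2 to 0.340 without those richest in fat (0.138 to 0.309 with 1 mouse left out), though filterByExpr kept only 6 of the 10. The number of the 10 called (1 as reported) was 0 with 4 CPM in at least 4 libraries, DESeq2-type size factors, upper quartile normalization, the DESeq2 Wald test, the library-name ending as a covariate, only the commoner ending, only libraries with under 50 counts of Slc10a2, Slc10a2 as a covariate or the newer quasi-likelihood test, 2 with only libraries of at least 50 counts, and 0 to 2 with 1 mouse left out. Genes called (1334 as reported) numbered 804 with the filterByExpr filter, 643 with DESeq2, 688 with the ending as a covariate, 680 with only the commoner ending, and 899 to 1581 with 1 mouse left out. Genes with an adjusted p under 0.05 (7 as reported) numbered 143 without a filter, 95 and 72 in libraries with under and with at least 50 counts of Slc10a2, 30 without the libraries richest in fat, 3 without those richest in muscle, 2 with Slc10a2 as a covariate, 0 to 48 with 1 mouse left out, and 0 with filterByExpr, 4 CPM in at least 4 libraries, DESeq2, limma-voom, both uses of the ending and the newer test. List genes called (21 as reported) numbered 9 with filterByExpr, 10 with DESeq2, 12 without the muscle-rich libraries, 12 with at least 50 counts of Slc10a2, 11 with it as a covariate, and 15 to 28 with 1 mouse left out. The cause was not tested.

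Mice of both groups share numbers, but nothing says that a number marks a cage or litter, and the correlations of same-numbered mice were -0.02, 0.05, 0.11 and 0.13, and no WT_SE mouse correlated best with the WT_EE mouse of its number. With the mouse number as a block, 1170 genes were called, 70 had an adjusted p under 0.05, and of the 10 Lyve1 was called (log2 fold change 0.54) and Kdr was not (0.37). With 295535 to 454043 counts a library, Cdh5, Eng and Tek are near the floor.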
